A study of Homo sapiens with 9 samples.

Results

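The cytokine receptor chains described here are the transmembrane subunits through which B cells read IL-2, IL-4, IL-7, IL-10, IL-13, IL-15 and IL-21. The 10 genes IL2RA, IL2RB, IL2RG, IL4R, IL7R, IL10RA, IL10RB, IL13RA1, IL15RA and IL21R were chosen by name from the 60656 genes of the count table, and the rule sets no threshold on a measured value. The choice was made with earlier results of these data known, so it was not independent of them. All 10 were in the table, and 8 had enough counts to be tested.

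RIVA is an established ABC-DLBCL line, that is, a diffuse large B-cell lymphoma of the activated B-cell type. The cells carried the doxycycline-inducible lentiviral vector pLVX-TetOne with no insert (vector), with BCL10 S136X, a truncation, or with BCL10 R58Q, a missense mutant of the CARD domain. BCL10 is an adaptor protein that links the B cell receptor to NF-kB. All 3 groups received doxycycline for 24 h, at 200 ng/mL by the treatment protocol and 200 ng/µL by the sample characteristics, so the drug was shared by the controls. RNA-seq was made from 3 replicates of each group. The labels give the genotype of the vector cells as BCL10 wild type, and counts on BCL10 do not separate the endogenous gene from the construct. The comparisons asked which transcripts differed between each mutant and vector and whether the mutants differed from each other. No library carried a construct of wild-type BCL10. Against vector, the mutation and the added expression of BCL10 therefore cannot be told apart in any value below. The study calls the replicates biologic, and p-values measure the spread between these libraries of 1 cell line.

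Cytokine receptors of this kind have no enzymatic activity. Of their chains, those that signal hold JAK kinases on their cytoplasmic tails, and not every chain described here does. Ligand brings chains together so that the kinases phosphorylate STAT transcription factors, which SOCS proteins then restrain. Chains are shared: the common gamma chain IL2RG serves IL-2, IL-4, IL-7, IL-15 and IL-21, IL4R pairs with either IL2RG or IL13RA1, and IL10RB serves IL-10 and several of its relatives. In B cells, IL-21 drives differentiation toward plasma cells, IL-4 acts on class switching and survival, and IL2RA, known as CD25, marks activation.

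Total counts ranged from 28047713 to 33122267 per library. BCL10 itself had 885, 1268 and 936 counts in vector, 14293, 13210 and 9838 in S136X and 10596, 10131 and 10117 in R58Q (log2 fold change 3.75 and 3.44 against vector), which shows a BCL10 construct expressed in both mutant groups but does not tell S136X from R58Q. The 10 B cell markers summed to 2799 to 3603 CPM (counts scaled to a common library total, with TMM factors) over the 9 libraries, and each was detected in every group. The 10 T cell markers summed to 10.3 to 21.2 CPM, carried by CD8A, CD5, TRAC and CD4, with CD8B at 0 in every library and CD3D at 0 to 2 counts. The NK cell markers summed to 1.66 to 1.83 CPM in vector and 0.672 to 1.34 CPM in the mutants, and the monocyte or macrophage markers to 0.376 to 0.741 CPM in all; the part of these transcripts in any value below was not tested. In the deposited column names the R58Q libraries carry a later date than the vector and S136X libraries, which share 1 date, so R58Q and that date cannot be told apart in any value below. In bulk RNA, fewer cells of a kind and less RNA per cell cannot be told apart either.

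All of the 10 genes but IL2RB had promoter entries, 12 in all, in the RefSeq set (GRCh38.p14), each reaching from 250 bases before a transcription start to 50 after it. The stretches below are shown because IL21R, IL15RA and IL2RA rose and IL13RA1 fell in R58Q. They lie before a RefSeq start and outside GENCODE exons, and run 5′ to 3′ on the strand of the gene. Capitals mark matches to the motifs searched.
IL2RA, chr10:6062371-6062617, minus strand: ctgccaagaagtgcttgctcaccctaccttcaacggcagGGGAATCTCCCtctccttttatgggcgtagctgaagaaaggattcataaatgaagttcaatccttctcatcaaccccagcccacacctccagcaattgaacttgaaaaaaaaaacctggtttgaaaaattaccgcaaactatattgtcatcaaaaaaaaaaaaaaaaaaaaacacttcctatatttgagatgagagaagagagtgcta
IL15RA, chr10:5977612-5977776, minus strand: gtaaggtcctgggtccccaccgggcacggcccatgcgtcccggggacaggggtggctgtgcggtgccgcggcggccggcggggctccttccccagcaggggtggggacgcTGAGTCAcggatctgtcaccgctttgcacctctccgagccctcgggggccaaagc
IL21R, chr16:27427021-27427243, plus strand: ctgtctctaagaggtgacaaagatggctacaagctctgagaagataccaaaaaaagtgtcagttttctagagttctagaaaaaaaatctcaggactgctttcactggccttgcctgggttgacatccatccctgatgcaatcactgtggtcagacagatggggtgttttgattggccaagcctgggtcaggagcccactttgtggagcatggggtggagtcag
IL13RA1, chrX:118727356-118727571, plus strand: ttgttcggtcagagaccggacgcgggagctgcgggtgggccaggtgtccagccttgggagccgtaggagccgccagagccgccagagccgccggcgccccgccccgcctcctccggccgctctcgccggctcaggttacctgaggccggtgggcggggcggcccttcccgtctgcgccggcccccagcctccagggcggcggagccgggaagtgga

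Both strands of each 300-base window were searched for the NF-kB consensus, for AP-1 (TGANTCA), for the STAT element GAS (TTCNNNGAA) and for an IRF consensus. IL2RA held 2 overlapping NF-kB matches, 1 on each strand, between positions -211 and -201 from the start, and 5.91% of the 35116 RefSeq windows held at least 1. IL15RA held an AP-1 match between positions -55 and -49 from that start, which lies inside the gene as the count table bounds it, beside 7.71% of all windows. IL15RA had several windows, and that share is per window and not per gene. Other IL15RA starts held a GAS match and a further AP-1 match. The stretch outside exons before its outermost RefSeq start, not shown above, held no match. No match stood in the IL21R, IL13RA1, IL2RG and IL7R windows, which also lie inside their genes as the count table bounds them. The IL21R window begins at chr16:27427021 and the gene at 27402174, so the bases before that outer end were not searched. An IL10RA window held AP-1, the IL4R window held 2 NF-kB matches, and the IL10RB window held GAS after its start. GAS stood in 7.66% and IRF in 3.57% of all windows. A match describes these letters only.

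In S136X against vector, 2 of the 8 tested chains were called higher, IL21R and IL15RA, where 2.05% of the 15530 genes tested were called higher. IL13RA1 was called lower, as were 1.82% of all genes tested. A call required a Benjamini-Hochberg adjusted p under 0.05 from edgeR's quasi-likelihood test and at least a 1.5-fold change. In R58Q against vector, IL21R, IL15RA and IL2RA were called higher and IL13RA1 lower, beside 4.09% higher and 3.54% lower among 15435 genes. Over the 8 chains the log2 fold change had a median of 0.22 for S136X and 0.39 for R58Q, against -0.02 and -0.03 over all genes tested. Because the chains were chosen with earlier results of these data known, these shares and medians are descriptions only. Both comparisons share the 3 vector libraries, so their values are set side by side and not as independent results.

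**Figure D1:**
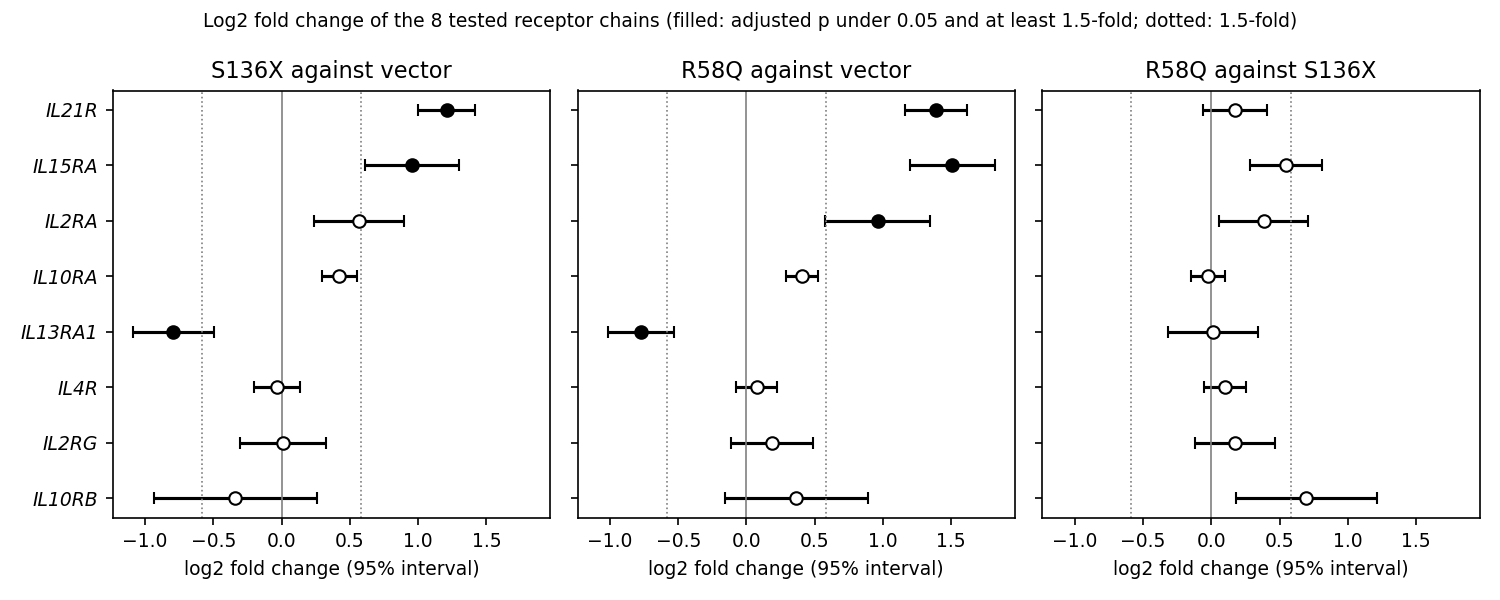
Log2 fold change of the 8 tested receptor chains on the horizontal axis, with 95% intervals from edgeR's fit, for S136X against vector, R58Q against vector and R58Q against S136X; filled points passed an adjusted p under 0.05 and 1.5-fold, and dotted lines mark 1.5-fold. IL21R and IL15RA lie right of the dotted line and IL13RA1 left of it in both mutants, and no chain is filled in the direct comparison of the mutants.

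Among the receptors that use the common gamma chain, IL21R (ENSG00000103522.16, chr16:27402174-27452042), the ligand-binding chain for IL-21, rose in both mutants. It was at 48.9, 50.9 and 58.6 CPM in vector replicates 1 to 3, at 110.9, 121.9 and 133.3 CPM in S136X and at 134.7, 125.4 and 155.3 CPM in R58Q. Every mutant library exceeded every vector library, and the S136X and R58Q ranges overlapped. The increase was 2.31-fold in S136X (log2 fold change 1.21, standard error 0.0919, adjusted p = 2.65e-04) and 2.62-fold in R58Q (1.39, standard error 0.0993, adjusted p = 1.09e-04; edgeR's quasi-likelihood test, Benjamini-Hochberg adjustment). Of the exon bases of IL21R, 23.3% overlap the antisense gene IL21R-AS1, which had 13 to 37 counts, and whether counting used strand is not given in the sources used here.

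IL15RA (ENSG00000134470.21, chr10:5943639-5978187), which binds IL-15 and presents it to neighbouring cells, had low counts and, in R58Q, the largest called rise among the chains. Counts were 148, 110 and 130 in vector, 231, 254 and 191 in S136X and 308, 330 and 380 in R58Q. In CPM the means were 3.86 ± 0.516 for vector, 7.48 ± 0.683 for S136X and 11.001 ± 0.622 for R58Q (SD, n = 3), and none of the 3 ranges overlapped. The increase was 1.94-fold in S136X (log2 fold change 0.96, standard error 0.152, adjusted p = 0.00716) and 2.85-fold in R58Q (1.51, standard error 0.136, adjusted p = 3.42e-04; edgeR's quasi-likelihood test, Benjamini-Hochberg adjustment). A further gene, AL137186.2, covers 4.16% of its exon bases on the same strand and had 2 to 9 counts.

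IL2RA (ENSG00000134460.18, chr10:6010689-6062370), the alpha chain that raises the affinity of the receptor for IL-2, lies 32.5 kb from IL15RA with no listed gene between them. Its levels were 23.6, 23.8 and 16.8 CPM in vector, 35.8, 31.1 and 28.3 CPM in S136X and 50.8, 35.5 and 38.8 CPM in R58Q. All mutant libraries were above all vector libraries, with replicate 1 the highest of the S136X and of the R58Q libraries, and the lowest R58Q library fell within the S136X range. The change in R58Q was 1.95-fold (log2 fold change 0.96, standard error 0.168, adjusted p = 0.00669). In S136X it was 1.48-fold (0.57, standard error 0.145, adjusted p = 0.0408), just under the fold threshold, so IL2RA was not called there by edgeR's quasi-likelihood test. Without vector replicate 1 it was called in S136X (log2 fold change 0.66, adjusted p = 0.0453), and over all alternatives for S136X its adjusted p reached 0.0831.

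IL2RB (ENSG00000100385.14, chr22:37125843-37175054), the signalling beta chain of the IL-2 and IL-15 receptors, was near the floor of detection. It had 8, 5 and 8 counts in vector, 11, 5 and 10 in S136X and 10, 3 and 6 in R58Q, too few to be tested. IL7R (ENSG00000168685.15, chr5:35852695-35879603), the alpha chain for IL-7, had 0 counts in all 9 libraries, and a count of 0 allows up to 3 counts, or 0.0906 to 0.107 CPM by total counts, depending on the library. Such limits cover counting error only. No difference in either chain was tested, and a small one would not be detectable at counts this low.

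IL2RG (ENSG00000147168.13, chrX:71107404-71112108), the common gamma chain, had 351, 418 and 471 counts in vector, 344, 457 and 323 in S136X and 371, 432 and 501 in R58Q. The groups overlapped. Its log2 fold change was 0.0088 in S136X (95% interval -0.31 to 0.32, adjusted p = 0.975) and 0.19 in R58Q (-0.11 to 0.49, adjusted p = 0.344; edgeR's quasi-likelihood test, Benjamini-Hochberg adjustment). Its level is uncertain, since 50.8% of its exon bases are also annotated to AL590764.2 on the same strand, which had 0 counts, and how the authors assigned reads on both genes is not given in the sources used here.

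Of the chains that read IL-4 and IL-13, IL4R moved little and IL13RA1 fell. IL4R (ENSG00000077238.14, chr16:27313668-27364778), the alpha chain that both cytokines need, was at 60.2, 54.8 and 53.5 CPM in vector, 53.1, 58.7 and 52.9 CPM in S136X and 57.4, 59.9 and 60.4 CPM in R58Q. These ranges overlapped. The log2 fold change was -0.03 in S136X (95% interval -0.20 to 0.13, adjusted p = 0.816) and 0.07 in R58Q (-0.07 to 0.22, adjusted p = 0.447; edgeR's quasi-likelihood test). IL4R lies 37.4 kb from IL21R with no listed gene between them.

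IL13RA1 (ENSG00000131724.11, chrX:118727133-118794535) joins IL4R in the type II receptor, which binds IL-13 as well as IL-4. It had 393, 392 and 417 counts in vector, 238, 198 and 184 in S136X and 225, 208 and 213 in R58Q. No mutant library reached the vector range, which was narrow at 11.96 ± 0.304 CPM (SD, n = 3), and the mutant means were 6.90 ± 1.07 in S136X and 7.01 ± 0.536 CPM in R58Q. The decrease was 1.73-fold in S136X (log2 fold change -0.79, standard error 0.131, adjusted p = 0.00843) and 1.71-fold in R58Q (-0.77, standard error 0.106, adjusted p = 0.00249; edgeR's quasi-likelihood test, Benjamini-Hochberg adjustment).

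**Figure D2:**
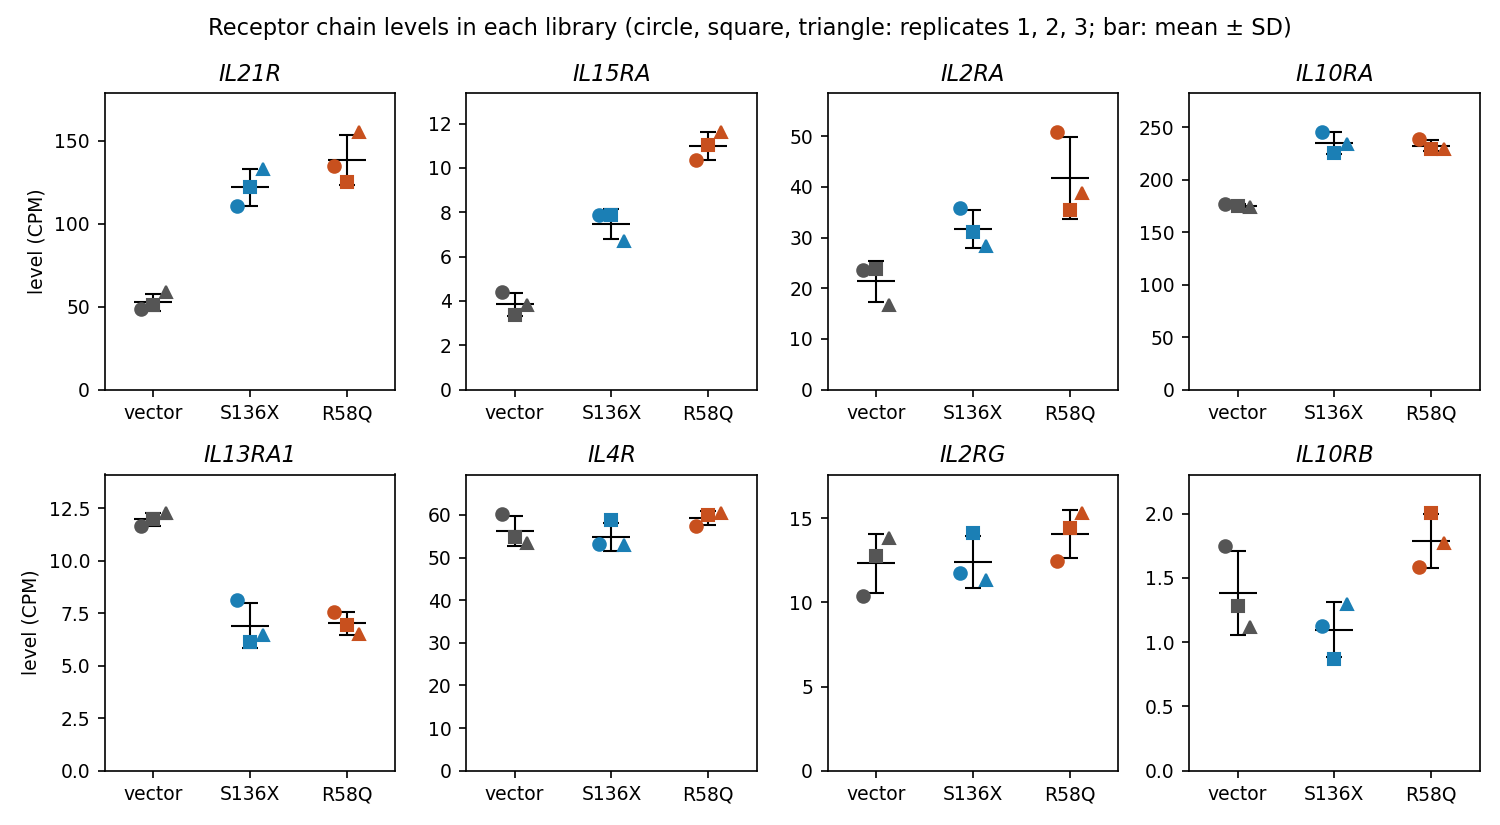
Level of each of the 8 tested chains (CPM, vertical axis from 0) in every library of vector, S136X and R58Q; circle, square and triangle are replicates 1, 2 and 3, and the bar is the mean ± SD. The mutant libraries of IL21R, IL15RA, IL2RA and IL10RA all sit above the vector libraries and those of IL13RA1 all sit below, while IL4R and IL2RG overlap between groups.

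Of the IL-10 receptor chains, IL10RA (ENSG00000110324.11, chr11:117986370-118003037), the ligand-binding chain, had the highest mean per length of the chains in every group. It was at 176.8, 174.7 and 174.5 CPM in vector, 245.5, 225.4 and 234.5 CPM in S136X and 239.0, 229.6 and 229.2 CPM in R58Q. The replicates were close together and the mutant libraries did not overlap vector, but the change stayed under 1.5-fold, so IL10RA was not called. It was 1.34-fold in S136X (log2 fold change 0.42, standard error 0.0573, adjusted p = 0.00379) and 1.32-fold in R58Q (0.41, standard error 0.0524, adjusted p = 0.00195; edgeR's quasi-likelihood test).

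IL10RB (ENSG00000243646.10, chr21:33266367-33310187), the accessory chain, was scarce, with 59, 42 and 38 counts in vector, 33, 28 and 37 in S136X and 47, 60 and 58 in R58Q. Each mutant overlapped vector. Its log2 fold change was -0.34 in S136X (95% interval -0.94 to 0.26, adjusted p = 0.455) and 0.37 in R58Q (-0.16 to 0.89, adjusted p = 0.286; edgeR's quasi-likelihood test). Its level carries the same limit as IL2RG, since 38.1% of its exon bases are annotated to AP000295.1 as well, which had 0 counts.

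The libraries of 4 chains lay wholly above vector in each mutant (IL21R, IL15RA, IL2RA and IL10RA) and those of IL13RA1 wholly below. Over all genes tested, 16% lay above and 15.4% below vector in S136X, and 21.1% and 19.2% in R58Q.

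The mutants were also compared with each other directly, since passing a threshold in 1 mutant only does not show that they differ. None of the 8 chains was called in R58Q against S136X, where 0.270% of 15195 genes were called higher and 0.165% lower. By edgeR's quasi-likelihood test 3 of the 8 had an unadjusted p under 0.05, and the share of all genes at that p was not counted. DESeq2 called 0 of the 8, beside 96 genes higher and 52 lower. IL15RA was 1.46-fold higher in R58Q (log2 fold change 0.55, 95% interval 0.28 to 0.81, adjusted p = 0.106), and its lowest R58Q library, at 10.4 CPM, exceeded the highest S136X library, at 7.89 CPM. IL10RB was at 0.70 (0.18 to 1.21, adjusted p = 0.279) with ranges that did not overlap either, and IL2RA at 0.38 (0.06 to 0.71, adjusted p = 0.361). Over all genes tested, 9.45% lay wholly above and 7.57% wholly below S136X in R58Q.

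For the other 5 chains the interval of the direct difference included 0. IL21R was at 0.17 (95% interval -0.06 to 0.41), IL4R at 0.10 (-0.05 to 0.25), IL2RG at 0.17 (-0.12 to 0.47), IL10RA at -0.02 (-0.15 to 0.10) and IL13RA1 at 0.01 (-0.32 to 0.34). With the replicate number as a block, which pairs libraries of the same number, 1 chain was called, IL10RB (log2 fold change 0.70, adjusted p = 0.0338). Over all genes the paired fit called 206 higher and 240 lower, against 41 and 25 unpaired. In that paired fit IL15RA (0.55, adjusted p = 4.54e-04), IL2RA (0.38, adjusted p = 2.85e-04) and IL21R (0.17, adjusted p = 0.0198) also had an adjusted p under 0.05 from edgeR's quasi-likelihood test and stayed under 1.5-fold.

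Levels of different genes can be set side by side only per length, here as CPM per kb of the union of each gene's GENCODE exons. The order, and which ranges overlap, depend on the length used. In vector the order was IL10RA (21.6), IL21R (9.66), IL4R (9.53), IL2RA (5.398), IL2RG (4.47), IL13RA1 (2.74), IL15RA (1.06), IL10RB (0.304), IL2RB (0.0443) and IL7R (0). The ranges of IL21R and IL4R overlapped, as did those of IL2RA and IL2RG. In S136X, IL21R reached 22.3 CPM per kb, clear of IL4R at 9.32, and IL15RA (2.06) stood before IL13RA1 (1.58), with ranges that overlapped. In R58Q, IL21R at 25.3 CPM per kb overlapped IL10RA at 28.7, IL2RA at 10.5 overlapped IL4R at 10.05, and IL15RA at 3.03 was above IL13RA1 at 1.60 with no overlap.

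Ratios of levels per kb set the same transcripts against each other and do not give the make-up of receptors as protein. Their size depends on the length used, and with the longest transcript IL4R stood before IL21R in vector. A gene's length is the same in every group. IL21R to IL4R was 1.02 ± 0.153 for vector, 2.40 ± 0.274 for S136X and 2.52 ± 0.257 for R58Q (SD, n = 3). IL4R to IL13RA1 was 3.49 ± 0.306 in vector, 6.01 ± 1.13 in S136X and 6.30 ± 0.639 in R58Q. In both ratios every mutant library was above every vector library. IL2RA to IL15RA was 5.15 ± 1.25, 3.89 ± 0.268 and 3.50 ± 0.859 in the same order of groups, and the groups overlapped. The ratios were given as descriptions, with no test.

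**Figure D3:**
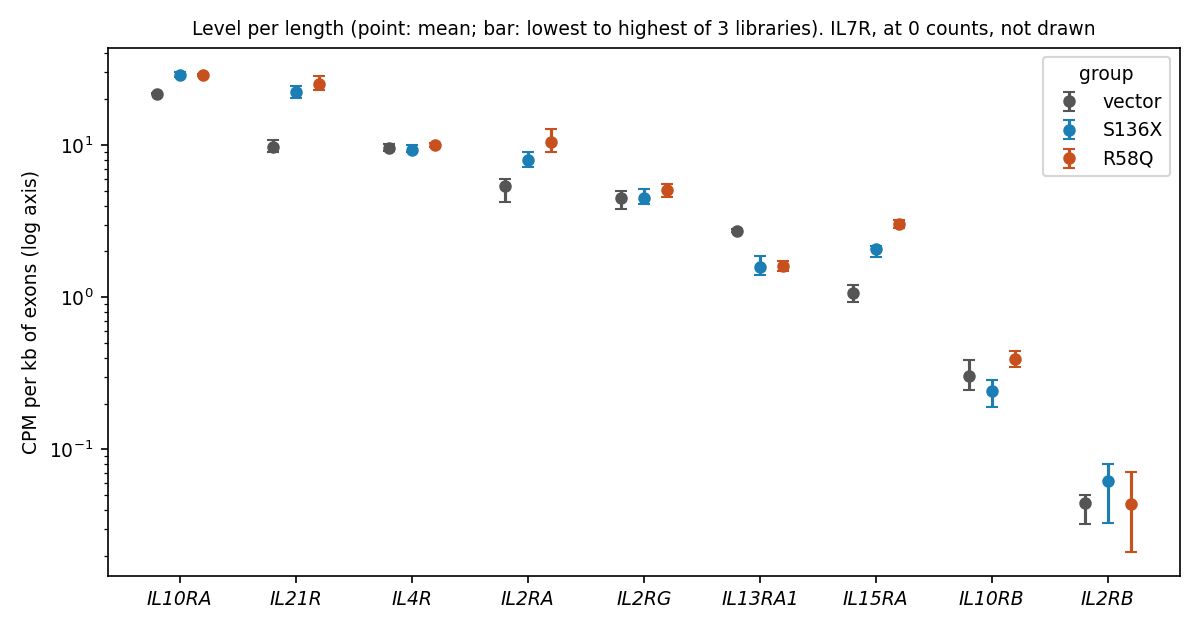
Level per length (CPM per kb of exons, log axis) of the chains in vector, S136X and R58Q; the point is the mean and the bar runs from the lowest to the highest of 3 libraries, and IL7R, at 0, is not drawn. IL21R moves from beside IL4R in vector to beside IL10RA in R58Q, and IL15RA and IL13RA1 change places between vector and R58Q.

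The signalling partners were read from lists. The 4 JAK kinases that bind these chains were all tested and none was called by edgeR's quasi-likelihood test in S136X or R58Q against vector. That test put 2 of them in S136X and 3 in R58Q below 0.05 before adjustment. How common such a p was over all genes was not counted. DESeq2 called 0 of the kinases in S136X, where it called 358 of all genes higher and 315 lower. In R58Q it called 1 kinase, beside 660 genes higher and 475 lower. JAK3, the partner of the common gamma chain, was at a log2 fold change of 0.25 in S136X (adjusted p = 0.255) and 0.57 in R58Q (adjusted p = 0.0124), the latter just under 1.5-fold. TYK2, which binds IL10RB and IL13RA1, was at 0.46 (adjusted p = 0.0419) and 0.45 (adjusted p = 0.0187), JAK1 at -0.23 and -0.25 (adjusted p = 0.0661 and 0.0307) and JAK2 at 0.07 and 0.28 (adjusted p = 0.792 and 0.198).

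Of the STAT genes, STAT5A was called higher in both mutants. The share of all genes called higher was 2.05% in S136X, 4.09% in R58Q and 0.270% in R58Q against S136X. STAT5A, which acts downstream of IL-2, IL-7 and IL-15, was at 41.0, 50.5 and 48.2 CPM in vector, 80.2, 91.5 and 90.2 CPM in S136X and 163.7, 142.2 and 185.3 CPM in R58Q. The 3 groups did not overlap. Its log2 fold change was 0.91 in S136X (adjusted p = 8.97e-04), 1.81 in R58Q (adjusted p = 5.58e-05) and 0.90 in R58Q against S136X (adjusted p = 0.0154; edgeR's quasi-likelihood test), and the last call was lost without any 1 of S136X replicates 1, 2 or 3 or R58Q replicate 3, with an adjusted p of up to 0.14.

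Of 8 SOCS genes, which encode feedback inhibitors of JAK and STAT signalling, 6 were tested. SOCS1 was called higher in S136X (log2 fold change 0.97, adjusted p = 0.0307) and in R58Q (2.19, adjusted p = 1.09e-04; edgeR's quasi-likelihood test), with 61, 55 and 68 counts in vector, 83, 152 and 91 in S136X and 215, 267 and 296 in R58Q. The S136X call was lost without vector replicate 1, 2 or 3 or S136X replicate 2 or 3, with adjusted p from 0.0635 to 0.131. SOCS3, named after its values were seen, was called in R58Q (2.76, adjusted p = 0.00306) and not in S136X (0.92, adjusted p = 0.0854) by edgeR's quasi-likelihood test. In the paired fit SOCS3 was called in S136X too (0.91, adjusted p = 0.00464), as it was with DESeq2 (adjusted p = 0.0255) and with no filter on low counts (adjusted p = 0.0105). Between the mutants, the unpaired fit gave adjusted p = 0.127 for SOCS3 and 0.0635 for SOCS1, while the paired fit called both higher in R58Q (SOCS3 1.79, adjusted p = 5.37e-09, and SOCS1 1.22, adjusted p = 7.09e-07), as did DESeq2 (adjusted p = 0.0339 and 7.30e-06) and edgeR's quasi-likelihood test with no filter (adjusted p = 6.35e-04 and 7.17e-04).

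Of the 33 other class I and II cytokine receptor chains, 18 were tested and 2 were called in each mutant, IL6R and CNTFR, both higher. Over all genes tested, 2.05% were called higher in S136X and 4.09% in R58Q. With the replicate block, which pairs libraries of the same number, 3 were called higher and 2 lower in S136X and 3 higher and 1 lower in R58Q. That fit called more of all genes too, 451 higher and 563 lower in S136X and 740 and 906 in R58Q. Unpaired, 319 and 282 were called in S136X and 632 and 546 in R58Q. The chains it added, named after their values were seen, were CSF2RB, the common beta chain (log2 fold change 0.60 for S136X, 0.95 for R58Q), and the IL-3-binding chain IL3RA (-1.04, adjusted p = 0.0298, and -1.01, adjusted p = 0.0199; edgeR's quasi-likelihood test) in both mutants and the IL-5-binding chain IL5RA (-0.60, adjusted p = 0.0415) in S136X. With no filter on low counts IL3RA was likewise called lower in both mutants, and CSF2RB higher in R58Q. The 18 had a median of -0.10 (S136X) and -0.03 (R58Q) on the log2 fold change scale. IL6R, the IL-6-binding chain, had 399, 285 and 344 counts in vector, 669, 526 and 769 in S136X and 877, 495 and 1020 in R58Q. Its log2 fold change was 1.11 in S136X (adjusted p = 0.00921) and 1.33 in R58Q (adjusted p = 0.00644; edgeR's quasi-likelihood test), and without vector replicate 2 the S136X call was lost (adjusted p = 0.0536). CNTFR, the ciliary neurotrophic factor receptor chain, had 3, 0 and 9 counts in vector, 31, 20 and 27 in S136X and 198, 63 and 127 in R58Q, so it passed the filter only through the mutant libraries and its fold rests on very few vector counts. Where at least 10 counts were required in every library it was not tested, which left 1 called chain of the list, IL6R, in each mutant. CNTFR was called in R58Q (adjusted p = 0.00247), and its S136X call (adjusted p = 0.0273) was lost without vector replicate 1, vector replicate 2 or S136X replicate 3, with adjusted p from 0.0641 to 0.0801. DESeq2 gave CNTFR no adjusted p in S136X and so did not call it there.

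Of 15 ligands of the receptors that these chains form, 14 had too few counts to be tested. IL7, named after its values were seen, had 32, 33 and 25 counts in vector, 45, 51 and 67 in S136X and 44, 36 and 53 in R58Q. It was called higher in S136X (log2 fold change 1.02, adjusted p = 0.0401) and not in R58Q (0.68, adjusted p = 0.0717) by edgeR's quasi-likelihood test. The S136X call was lost without vector replicate 1, 2 or 3 or S136X replicate 2 or 3, and with total-count scaling. IL7 did not pass in R58Q against S136X (-0.35, adjusted p = 0.704). The IL7R counts were 0 in the same libraries. IL2 and IL9 had 0 counts throughout, IL21 0 or 1, IL15 0 to 3, IL4 0 to 5 and IL10 0 to 9.

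**Figure D4:**
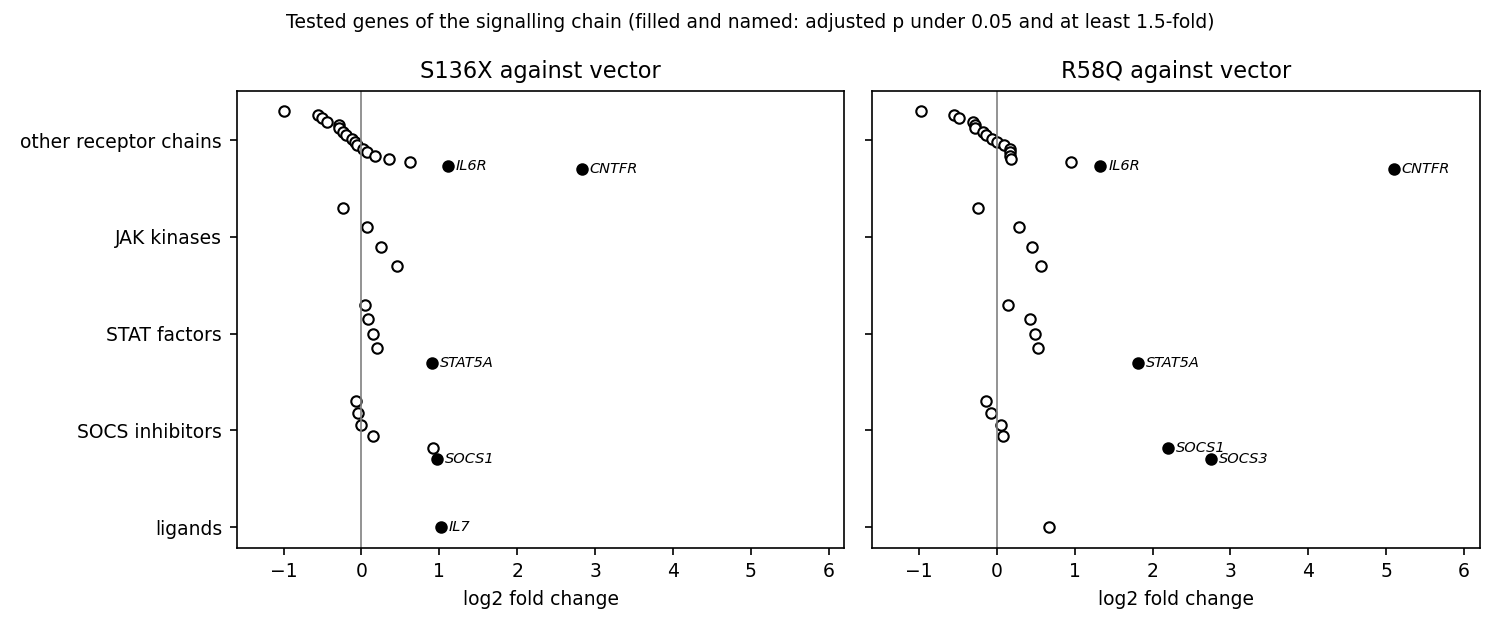
Log2 fold change against vector (horizontal axis) of tested genes of the lists of other receptor chains, JAK kinases, STAT factors, SOCS inhibitors and ligands, for S136X and R58Q; filled and named points passed an adjusted p under 0.05 and 1.5-fold. STAT5A, SOCS1, IL6R and CNTFR are filled in both panels, IL7 in S136X and SOCS3 in R58Q, and no JAK kinase is.

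The genes most like IL15RA and IL13RA1 over the 9 libraries were found among 11965 protein-coding genes, by the root mean square difference of log2 CPM after centring each gene on its own mean. Nearest to IL15RA were BCL2L1 (0.109), which encodes the survival protein BCL-xL, and MGLL (0.132), a monoacylglycerol lipase. BCL2L1 went from 136.6 ± 8.72 CPM in vector to 243.2 ± 8.12 in S136X and 349.1 ± 24.3 in R58Q (SD, n = 3). Nearest to IL13RA1 were MMP15 (0.0936), a membrane metalloproteinase, ZNF660 (0.102), a zinc finger gene, and METTL7A (0.105), a methyltransferase-like gene. METTL7A went from 76.4 ± 7.42 CPM in vector to 45.1 ± 4.05 in S136X and 44.7 ± 4.83 in R58Q.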

How the data were processed

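RNA-seq of poly(A)-selected RNA gave 9 libraries, 3 each of vector, S136X and R58Q. The submitters' processing notes name cutadapt, STAR, Picard and hg38; the counting program, its strand setting and its rule for overlapping genes are not given in the sources used here. The authors deposited read counts per gene and, beside them, a normalized signal (counts divided by 1 factor per library), which was not used in any test. Libraries were amplified by PCR without molecular identifiers.

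Tests ran in edgeR 4.0.16 (limma 3.58.1, R 4.3.3). For each pair of groups its 6 libraries were filtered with filterByExpr (minimum count 10 and total 15), scaled by TMM and fitted by quasi-likelihood, with the F test's p-values adjusted by Benjamini-Hochberg over all genes tested. A standard error is the size of the log2 fold change over the square root of F, and similarity used log2 CPM with a prior count of 2. Named beside the 10 chains were pathway genes called in both mutants, the JAK kinases and the 3 protein-coding genes nearest to the chain that rose and to the chain that fell most in R58Q. The chains and lists were chosen with earlier results of these data known, and the NF-kB consensus was tightened after the share of promoters holding a looser form was seen. Alternatives were RLE, upper-quartile and total-count scaling, DESeq2 1.42.0, other filters, all 9 libraries in 1 fit, a replicate block, each library left out, no fold threshold and another transcript length. The procedures were tested on simulated data. Some genes that the rule or the lists select are not reported here.

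Replicates carry the numbers 1 to 3 in the labels. Libraries sharing a number deviated together from their group means, with correlations of 0.143 to 0.626 in all 9 cases (median 0.425). The 18 pairs with different numbers ran from -0.459 to 0.169 (median -0.251), so these ranges overlapped at their ends. Deviations within a group cancel for each gene, so positive correlations at shared numbers pull the others down, and the sets are not independent. The numbers were taken to pair the libraries only in the fit with the replicate block. The main tests left the replicate number out, so their p-values are unpaired. The labels do not say what a number marks.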

Additional observations from a re-analysis of the deposited data

How the results depend on the processing

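Over the alternatives for normalization, tool, filter, libraries in the fit, replicate block, left-out libraries and fold threshold, 344 of 360 log2 fold changes of the receptor chains kept their direction and their side of the threshold, 5 gained a call and 11 changed sign, all 11 in comparisons where the chain was not called. No call of a chain was lost: the highest adjusted p was 0.00444 and 0.00181 for IL21R in S136X and R58Q, 0.0418 and 0.0033 for IL15RA, 0.0446 and 0.017 for IL13RA1, and 0.0257 for IL2RA in R58Q. With no fold threshold 4 chains were called higher in S136X against vector, with IL2RA and IL10RA added. That setting reuses the fold changes of the main fit, so it can only add calls. The share of all genes called under it was not counted. With the replicate block 1 chain, IL10RB, was called higher in R58Q against S136X; the paired fit changed no other call of a chain. With the longest transcript as the length, 8 of 10 chains kept their place in the order of levels in vector, where IL4R stood before IL21R, and 8 in R58Q, where IL4R stood before IL2RA.

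In S136X against vector, IL2RG was at -0.030 with upper-quartile and -0.047 with total-count scaling and ran from -0.090 (vector replicate 1 left out) to 0.11 (vector replicate 3 left out). Leaving out 1 library also moved IL4R from -0.071 to 0.030 and JAK2 from -0.0092 to 0.21 there. In R58Q against S136X, it moved IL10RA from -0.053 to 0.0071 and IL13RA1 from -0.064 to 0.15, and upper-quartile scaling put IL13RA1 at -0.0064. For these shifts around 0 the cause was not tested. Of the low-count chains, IL2RB did not pass the filter and IL7R had 0 counts, and IL10RB, with 28 to 60 counts, had the widest intervals.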
